A study of Mus musculus with 2 samples.

Results

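The genes described here are the variable (V) gene segments of the mouse T cell receptor, read in single cells of fibrotic liver. Every gene whose symbol begins with Trav, Trbv, Trgv, Tcrg-V or Trdv was looked up, and those with at least 20 unique molecular identifiers (UMIs, each counting 1 captured transcript) over both libraries were kept. Of 55357 genes in the matrices 178 carry such a symbol, and 45 passed: 22 alpha, 17 beta, 4 gamma and 2 delta chain genes. Their use was followed in T cells, taken as cells with at least 2 UMIs of Cd3d, Cd3e and Cd3g together, the genes of the signalling complex that holds the receptor. These are called CD3 cells below.

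Livers came from mice with fibrosis caused by carbon tetrachloride (CCl4), a toxin to hepatocytes, and cells were sequenced by the 10x Genomics 3′ method. There were 2 groups with 1 library each. One group received CCl4 alone, and the other CCl4 with indole propionic acid (IPA), a product that gut bacteria make from tryptophan. Both groups thus carry CCl4 injury, and there was no uninjured liver among the samples. Strain, sex, age, dose and the number of animals behind each library are not given in the sources used here. With 1 library per group there is no replicate error and no test. Differences are therefore those of 1 pair of libraries and cannot be laid to the treatments. Ranges in brackets are 95% exact intervals that cover counting error only.

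Each T cell builds its receptor by cutting 1 V segment per chain from a large germline set and joining it to a J segment, with a D segment between them in beta and delta chains. Most T cells carry an alpha and a beta chain and read peptides on MHC molecules, CD4 cells on class II and CD8 cells on class I. Gamma delta T cells carry the other pair of chains. Some liver T cells have nearly fixed receptors: invariant NKT cells join Trav11 with a few beta genes and see lipids on CD1d, MAIT cells join Trav1 and see riboflavin metabolites on MR1, and gamma delta cells with Trgv6 and Trdv4 (the V gamma 6 and V delta 1 chains) make interleukin 17. The V segment lies at the 5′ end of the transcript, far from where a 3′ library is read, so only part of the T cells show it. The junction was not read, and cells that share a V gene were not sorted into clones.

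The sequences of the genes on which the results turn are given first, each as the last 90 bases up to the codon of the conserved cysteine that closes the V segment, from the GENCODE M21 transcripts (GRCm38). Trav11 and its copy Trav11d are shown because the marker of invariant NKT cells cannot be separated from this copy. Capitals mark the cysteine codon.
Trav11: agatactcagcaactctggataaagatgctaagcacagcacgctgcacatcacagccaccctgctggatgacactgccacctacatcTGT
Trav11d: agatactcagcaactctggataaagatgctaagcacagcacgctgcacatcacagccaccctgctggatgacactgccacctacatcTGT

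Trbv12-1 and Trbv12-2 are shown because they are near copies that were nevertheless counted apart. Capitals mark the 5 bases at which they differ (94.4% identity).
Trbv12-1: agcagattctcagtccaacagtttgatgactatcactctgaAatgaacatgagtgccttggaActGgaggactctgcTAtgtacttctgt
Trbv12-2: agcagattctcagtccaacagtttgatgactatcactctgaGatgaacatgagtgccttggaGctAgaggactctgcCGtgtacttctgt

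The last set holds the beta gene that was used most in CD8 cells with NK receptors, the alpha gene most used in the CCl4+IPA library, and the main gamma and delta genes. Capitals mark the cysteine codon.
Trbv16: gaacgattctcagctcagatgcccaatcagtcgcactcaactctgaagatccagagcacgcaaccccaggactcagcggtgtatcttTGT
Trav8d-2: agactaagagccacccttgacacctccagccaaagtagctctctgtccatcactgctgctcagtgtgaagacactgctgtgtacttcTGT
Trgv2: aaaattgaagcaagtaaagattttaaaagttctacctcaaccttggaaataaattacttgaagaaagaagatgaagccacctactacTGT
Trdv4: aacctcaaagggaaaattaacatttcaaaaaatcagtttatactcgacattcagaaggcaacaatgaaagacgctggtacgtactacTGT

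Alpha genes without sequence of their own were hardly seen. The mouse alpha locus holds duplicated blocks, so many Trav genes have copies with the suffix d or n. For each gene the share of its 90-base windows that occur in no other V gene was computed. The 40 Trav genes with a share of 0% held 1 UMI between them, and none of the 22 with a share above 0% and below 50% was a member, with 107 UMIs in all. The lowest share of a member was 62.5% among alpha genes and 57.1% over all chains, for the delta gene Trdv2-2. All 35 Trbv genes were fully unique, so the beta chain carries the comparisons below with the least loss. Trav11, at 0.394%, had 1 UMI in the CCl4 and 3 in the CCl4+IPA matrix, and Trav11d had 0. Such a low count is therefore no measure of invariant NKT cells. Of 51 Trav genes without a UMI 12 had some unique sequence. Trav1, the MAIT gene, is fully unique and had 7 and 3 UMIs, all in CD3 cells, which is under the limit of 20.

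**Figure D1:**
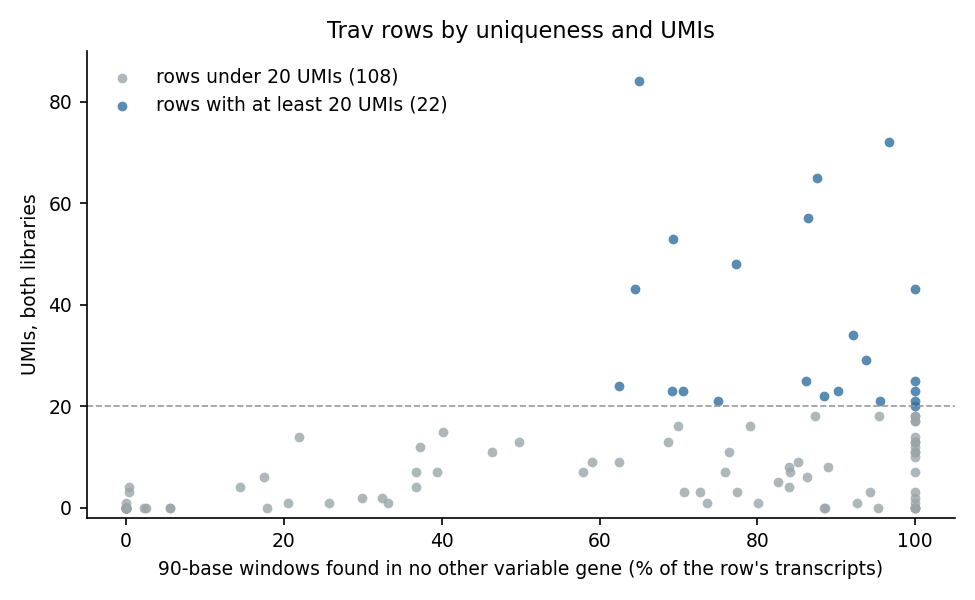
UMIs over both libraries (vertical axis) against the share of 90-base windows found in no other V gene (horizontal axis, percent), 1 point for each of the 130 Trav genes, with a dashed line at 20 UMIs. The 40 genes without a unique window hold 1 UMI in all, and the 22 members lie at 62.5% and above.

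Just inside the limit of 20 UMIs were Trav4-3 with 20 and Trav4-4-dv10, Trav17 and Trav12-2 with 21 each. Just outside it were Trav20, Trav9-2, Trav13n-4 and Trav3-4 with 18 each. The 133 genes left out held 583 UMIs and the 45 members 3215, and 60 genes of the 178 had no UMI. Genes with a -dv suffix can join either the alpha or the delta locus and were counted as alpha here.

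After filtering there were 10016 and 10128 cells in the CCl4 and the CCl4+IPA library, of which 2704 (27.0%) and 3233 (31.9%) were CD3 cells. CD3 cells of the CCl4 library were deeper, with medians of 4018.5 against 3369 UMIs, and had a higher mitochondrial share, 3.52% against 1.78%. CD8 cells (a Cd8a or Cd8b1 UMI and no Cd4) were 54.4% and 53.5% of CD3 cells, and CD4 cells 15.5% and 17.9%. Cells with neither coreceptor were 28.4% and 26.5%. Cells with at least 2 UMIs of 23 NK receptor genes were 41.0% and 41.9%. The libraries shared 23 barcodes.

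Summed by chain, V gene UMIs fell mainly in CD3 cells, with 1 exception. Of member UMIs in filtered cells 92.6% (1695 of 1830) lay in CD3 cells of the CCl4 library and 85.75% (1029 of 1200) in the CCl4+IPA library. By chain these shares were 96.6% and 94.3% for alpha, 96.7% and 94.8% for beta and 94.8% and 91.5% for gamma. Within gamma, Trgv2 had 98.3% and 98.1%, but Trgv1 78.9% and 63.9% and Trgv6 89.8% and 63.2%. For delta the shares were 75.1% and 35.4%. The rest of the delta UMIs lay mainly in cells with NK receptor genes and no CD3 UMI, with 64 UMIs in the CCl4 and 84 in the CCl4+IPA library. B cells (at least 2 UMIs of Cd79a, Cd79b and Ms4a1, no CD3 UMI) give the background of free RNA. Of these 9 of 3833 (0.235%) and 5 of 3221 (0.155%) had a V gene UMI, at median depths of 2814 and 2373 UMIs.

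At least 1 V gene was seen in 902 CD3 cells with CCl4 (33.4%) and in 686 with CCl4+IPA (21.2%). A beta gene was seen in 18.4% and 10.3%, an alpha gene in 9.84% and 7.21%, a gamma gene in 8.36% and 5.51% and a delta gene in 2.88% and 0.990%. Because depths differ, cells were also thinned to 2000 UMIs each, which left out 222 and 301 shallower CD3 cells. The thinned share with a beta gene was 9.75% (8.61 to 11) and 5.56% (4.76 to 6.45), so beta genes remained less often seen in the CCl4+IPA library. The thinned share with an alpha gene was 4.88% (4.06 to 5.80) and 4.30% (3.59 to 5.10), with ranges that overlap. For gamma it was 5.56% and 3.41%, and for delta 2.18% and 0.614%. Thinned B cells showed any V gene in 0.118% and 0.0822%.

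The lower beta, alpha and gamma V UMIs of the CCl4+IPA library were not matched by the summed constant genes of these chains. For delta both were lower. Trbv genes together stood at 50.8 UMIs per 1000000 (CPM) over CD3 cells of the CCl4 library and 28.9 in the CCl4+IPA library, 1.76-fold higher in the former (1.55 to 2.00). Trbc1 and Trbc2, the constant segments present in every beta transcript, had a CCl4+IPA to CCl4 ratio of 1.01. Per 1000 Trbc UMIs there were thus 26.5 Trbv UMIs (24.5 to 28.7) in the CCl4 and 15.0 (13.5 to 16.5) in the CCl4+IPA library. For alpha the numbers per 1000 Trac UMIs were 57.7 and 42, and for gamma per 1000 Trgc UMIs 401 and 195. The Trgc sum had a ratio of 1.10, but within it Trgc1 was lower (0.679, 0.585 to 0.787), and Trgc2 (1.37) and Trgc4 (1.32) were higher. Delta V genes had 196 and 86.2 UMIs per 1000 of Trdc, and Trdc itself had a ratio of 0.555 (0.504 to 0.611). Depth, the mitochondrial share and V recovery differ between the libraries together, and their part in these levels was not tested. For this reason gene use is given below as a share of the cells assigned for a chain, which such a common shift does not move directly. It can still act through cells left out for showing several genes of a chain.

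Gene by gene, CPM was lower in the CCl4+IPA library for 38 of 45 members: 16 of 22 alpha, 17 of 17 beta, 4 of 4 gamma and 1 of 2 delta genes. The smallest beta differences were those of Trbv20 (log2 ratio -0.01) and Trbv13-1 (-0.02). Of the 40 members with at least 20 UMIs in CD3 cells over both libraries 24 were lower past 1.5-fold, against a background of 5.91% of all 14269 genes with that many UMIs. Past 1.5-fold in the other direction were 4 of 40, against a background of 15.1%. These 4 were the alpha genes Trav13-4-dv7, Trav6-7-dv9, Trav8d-2 and Trav3-3. The background genes were not matched to the members on UMIs. Many members lie near 20 UMIs, where counting error passes 1.5-fold more often. Some reach 20 mainly through 1 library, such as Trav14-2 (18 and 3 UMIs) and Trav13-4-dv7 (6 and 34). How far this enters the 2 counts was not tested. The median log2 ratio was -0.74 over the 40 members and 0.25 over all 14269 genes. By chain it was -0.54 for alpha (18 genes), -0.69 for beta (17 genes) and -0.93 for gamma (4 genes), and the only delta gene measured so, Trdv4, stood at -2.20.

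**Figure D2:**
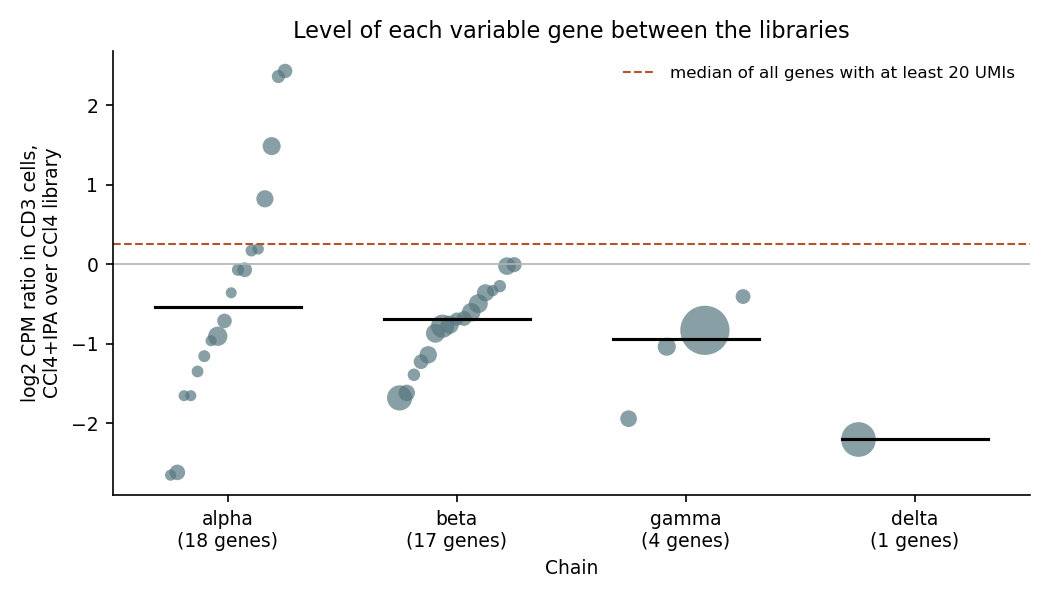
Log2 ratio of CPM in CD3 cells, CCl4+IPA over CCl4 (vertical axis), for the 40 V genes with at least 20 UMIs there, grouped by chain, with 1 point per gene whose size grows with its UMIs, a bar at each chain's median and a dashed line at the median of all genes (0.25). No beta or gamma gene lies above 0, Trdv4 is lowest among gamma and delta genes, and 4 alpha genes lie past 1.5-fold above 0.

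Other genes of the receptor mostly stayed within 1.5-fold, apart from the delta constant gene. Of 4 CD3 complex genes 0 passed 1.5-fold either way (median log2 ratio 0.05), and the same held for the 3 coreceptor genes (0.33). Of 24 signalling genes 2 were higher past 1.5-fold and 0 lower (0.38): Ptpn22, a phosphatase that restrains the receptor (1.51-fold), and Trat1, an adaptor of the complex (1.52-fold). Of 7 constant genes 1 was lower past 1.5-fold, the delta constant gene Trdc. The gamma constant gene Trgc1 had a ratio of 0.679, while Trgc2 (1.37) and Trgc4 (1.32) lay on the other side. Rag1 and Rag2, the enzymes of rearrangement, had 1 UMI in the CCl4 library between them and 0 in the other.

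A cell was assigned a V gene when it showed UMIs of 1 member of that chain and no other, and the use of a gene is its share of the cells so assigned. There were 468 and 323 beta-assigned CD3 cells, 253 and 223 for alpha, 186 and 161 for gamma and 77 and 31 for delta. Of CD3 cells with a beta gene 5.84% (29 of 497) and 3.29% (11 of 334) showed more than 1, and were left out. UMIs of a 3′ library are not scaled by length and segments may differ in how often they are reached, so the order of genes is an order of detection.

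Beta use was broad and led by Trbv16 and Trbv12-2. Trbv16 was used by 69 of 468 cells of the CCl4 library (14.7%, 11.7 to 18.3) and 30 of 323 of the CCl4+IPA library (9.29%, 6.35 to 13.0), a ratio of 0.630 (0.396 to 0.980). Trbv12-2 was used by 56 cells (12%) and 38 cells (11.8%), and its near copy Trbv12-1 by 32 (6.84%) and 26 (8.05%). Trbv3 had 7.05% and 8.05%, Trbv1 7.26% and 5.88%, Trbv2 6.84% and 6.5% and Trbv13-2 6.41% and 5.88%. No other beta gene used by at least 20 cells in both libraries exceeded 10% in either. Over the 17 beta genes the 2 libraries' use correlated with Pearson's r of 0.79 and Spearman's rho of 0.79, as a description across genes that are not independent.

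Among 12 beta genes with at least 20 assigned cells in the higher library 3 differed in use past 1.5-fold. Trbv16 was the one higher in the CCl4 library. Trbv13-1 had 28 cells (5.98%) and 30 cells (9.29%), 1.55-fold higher in the CCl4+IPA library (0.896 to 2.70). Trbv13-3 had 21 (4.49%) and 22 (6.81%), 1.52-fold higher there (0.796 to 2.90). The counting ranges of the latter 2 include no difference, and that of Trbv16 comes close to it. The count of 3 was 0 at 2-fold, 1 over all barcodes, 1 with 2 UMIs asked of the V gene and 6 with a limit of 10 cells. No count of genes by use is set against all genes, since use is defined within a chain.

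**Figure D3:**
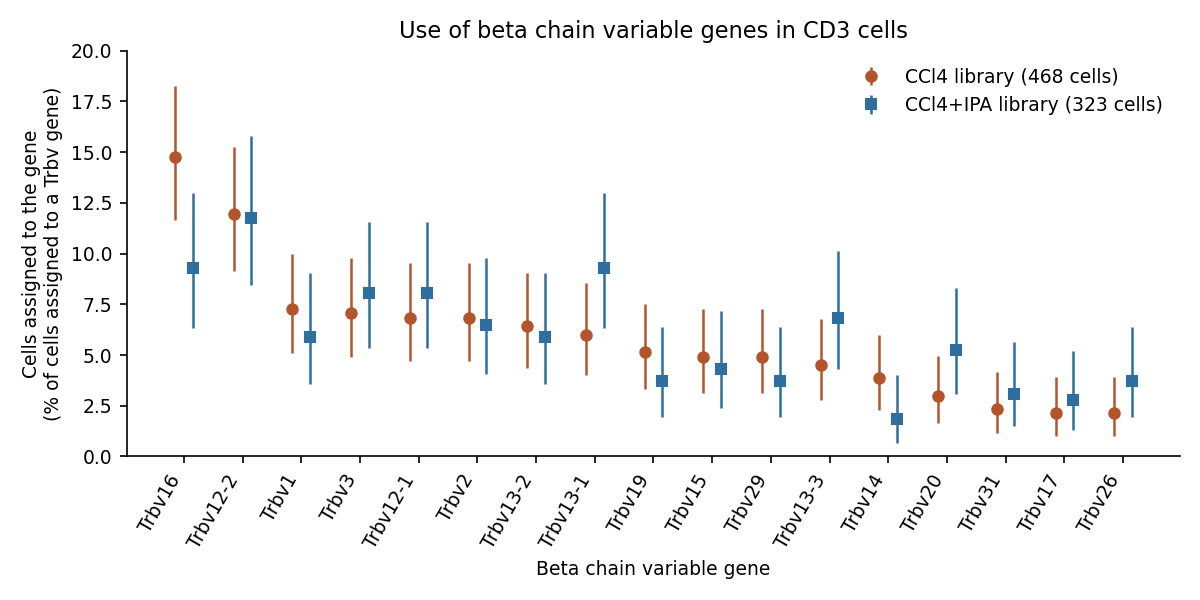
Use of the 17 beta genes in CD3 cells, as percent of beta-assigned cells (468 in the CCl4 and 323 in the CCl4+IPA library), with points for the libraries and lines for 95% exact intervals of counting error. Trbv16 stands at 14.7% and 9.29% and Trbv12-2 at 12% and 11.8%.

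CD4 and CD8 cells were compared for the beta genes they used. Use is given over 80 CD4 and 291 CD8 cells of the CCl4 library and 57 and 209 of the CCl4+IPA library. Trbv12-1 was used by 3.75% of CD4 and 8.59% of CD8 cells in the CCl4 library, a ratio of 2.29 (0.699 to 11.9). In the CCl4+IPA library it was used by 0 of 57 CD4 cells and by 12% of CD8 cells. With the 0 set at a floor of 3 cells (5.26%) that is 2.27-fold more, but the exact interval of the ratio starts at 1.72. It was the only 1 of 5 beta genes with at least 20 cells in each library that passed 1.5-fold the same way in both. No gene did so outside cells with NK receptors, or when 2 UMIs of the V gene were asked for.

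Trbv16 leaned to CD8 cells in the CCl4 library alone past that limit, at 2.5% of CD4 and 21% of CD8 cells (ratio 8.38, 2.22 to 70.8). In the CCl4+IPA library it stood at 8.77% and 12% (1.36, 0.513 to 4.56). Whether the libraries differ in this ratio was not tested. Trbv12-2 went from 5.00% of CD4 to 14.4% of CD8 cells in the CCl4 library and was close to level in the other, at 10.5% and 11.5%.

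Trbv2, Trbv3 and Trbv19 stood higher in CD4 cells of both libraries, from few cells. Trbv2 was used by 13.75% of CD4 and 3.09% of CD8 cells in the CCl4 library (4.45-fold, 1.67 to 12.1) and by 10.5% and 3.83% in the other (2.75-fold, 0.786 to 9.04). Trbv3 had 12.5% and 4.12% (3.03-fold, 1.17 to 7.66), then 10.5% and 6.22% (1.69-fold, 0.527 to 4.77). Trbv19 had 7.50% and 3.44%, then 5.26% and 3.35%. Trbv1 was higher in CD4 cells of the CCl4 library, at 17.5% against 4.47% (3.92-fold, 1.71 to 9.05), but not of the CCl4+IPA library, at 5.26% against 5.74%. Over all 17 beta genes 10 leaned the same way in both libraries (4 to CD4 and 6 to CD8), and among 22 alpha genes 10 did.

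The same contrast can be set against all genes as the share of cells with a UMI. Of 7 members with at least 20 such cells in each library 3 were higher past 1.5-fold in CD8 cells of both libraries (Trbv12-1, Trbv16 and the gamma gene Trgv2), against a background of 4.30%. In the CD4 direction 0 of 7 were, against a background of 3.97%. CD4 gates held 420 and 578 cells and CD8 gates 1472 and 1729, so a sparse V gene reaches 20 cells mainly through CD8 cells. Trbv1 and Trbv19, in 19 and 14 CD3 cells of the CCl4+IPA library, could not enter. Neither count therefore measures which coreceptor V genes lean to. The limit of 20 cells on use above favours CD8 cells likewise.

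Within CD8 cells, Trbv16 went with NK receptor genes in both libraries. In the CCl4 library 47 of 155 beta-assigned CD8 cells with NK receptors used it (30.3%, 23.2 to 38.2), against 14 of 136 without (10.3%), a ratio of 2.95 (1.59 to 5.79). In the CCl4+IPA library the numbers were 21 of 129 (16.3%, 10.4 to 23.8) and 4 of 80 (5.00%), a ratio of 3.26 (1.10 to 13.0). The receptor gene Klrb1c alone, in place of the list of 23, left 15 and 14 cells, of which 6.67% and 7.14% used Trbv16. Asking for 2 UMIs of the V gene left 30 and 12 cells, of which 60% and 8.33% did. Trbv12-2 lay the other way, at 11.6% with and 17.6% without NK receptors and then 8.53% and 16.25%. So did Trbv12-1, at 7.1% and 10.3% and then 9.30% and 16.25%. By share of cells with a UMI, 2 of 4 members measured so were higher in CD8 cells with NK receptors in both libraries (Trbv16 and Trgv2), against a background of 5.33%, and 0 of 4 lower, against 0.557%.

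**Figure D4:**
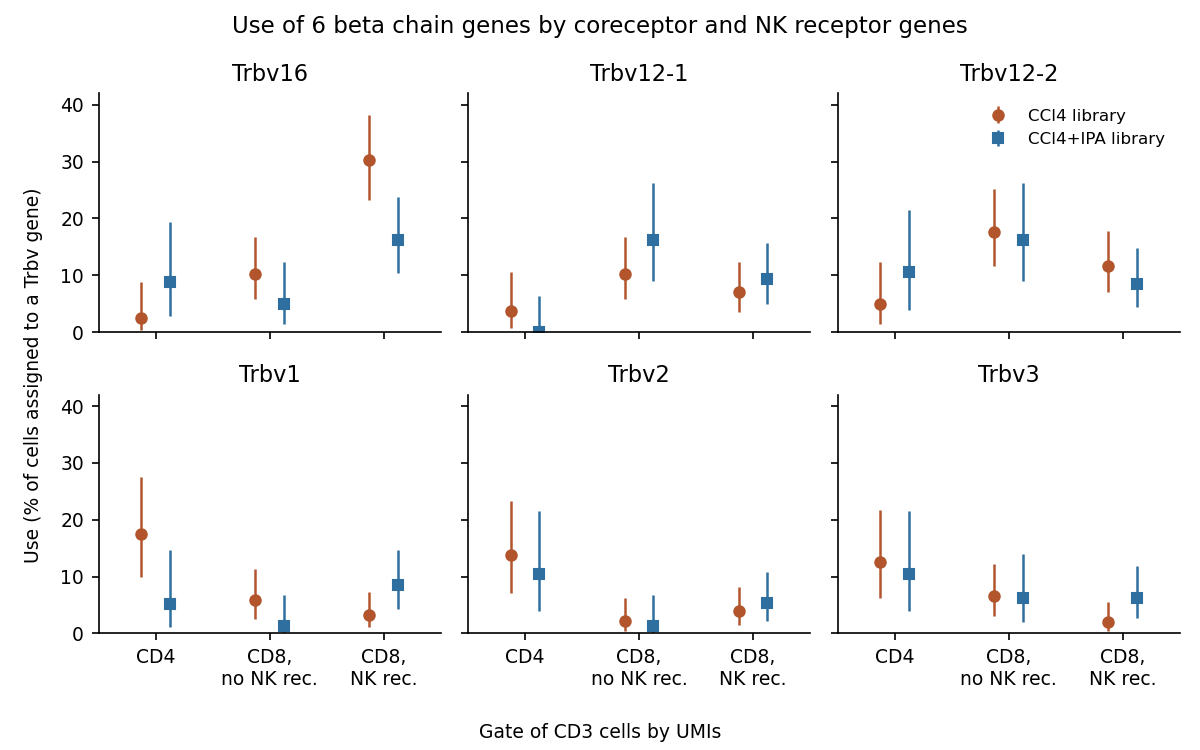
Use of 6 beta genes (percent of beta-assigned cells) in CD4 cells and in CD8 cells without and with NK receptor genes, for each library, with 95% exact intervals of counting error. Trbv16 reaches 30.3% and 16.3% in CD8 cells with NK receptors, and 2.5% and 8.77% in CD4 cells.

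What Trbv16 CD8 cells expressed was not alike in the libraries. In the CCl4 library 61 such cells were set against 230 CD8 cells with another beta gene. The activating receptor gene Klrk1 (NKG2D) stood at 308 and 108 CPM (2.85-fold, 2.19 to 3.70), its relative Klre1 at 242 and 70.4 (3.44-fold, 2.52 to 4.69) and the granzyme gene Gzma at 2.91-fold (2.65 to 3.20). Klrk1 and Klre1 are among the 23 genes that set the NK receptor gate. Their higher level is thus not separate from the higher use of Trbv16 in that gate. Il7r, the survival receptor of naive and memory cells, stood at 38.8 and 320 CPM (ratio 0.121, 0.0640 to 0.209), and Tcf7, a transcription factor of naive and memory cells, at a ratio of 0.338. In the CCl4+IPA library, with 25 and 184 cells, these ratios were 0.631 for Klrk1, 1.48 for Klre1, 1.15 for Gzma, 0.918 for Il7r and 0.937 for Tcf7. Closer in the libraries were Gzmk, another granzyme gene (1.59-fold and 1.87-fold), Cxcr6, a receptor that holds T cells in the liver sinusoids (2.01-fold and 1.39-fold), and S1pr1, which lets T cells leave tissue (ratios of 0.312 and 0.303).

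The beta genes of invariant NKT cells were not used more by cells with NK receptors beyond counting error. These were mainly CD8 cells, 794 of 1109 in the CCl4 and 943 of 1356 in the CCl4+IPA library. Cells with neither coreceptor were 267 and 339 of them, and CD4 cells 34 and 49. A bias within these smaller parts could be missed, so no conclusion on invariant NKT cells is drawn. Trbv13-2, the main partner of Trav11, was used by 7.22% of CD3 cells with and 5.84% without NK receptors in the CCl4 library (ratio 1.24, 0.559 to 2.70), and by 6.0% and 5.78% in the other. Trbv29 stood at 4.64% and 5.11%, then 2.67% and 4.62%. Trbv1 stood at 5.67% and 8.39% in the CCl4 library and at 8.67% and 3.47% in the CCl4+IPA library. Trav11 was found in 1 CD3 cell of each library, and both had NK receptors. Trav1 was found in 7 and 3 CD3 cells.

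Alpha use correlated less between the libraries than beta use. Over 22 alpha genes Pearson's r was 0.27 and Spearman's rho 0.23, from fewer cells per gene than for beta. All 4 genes with at least 20 assigned cells in the higher library passed 1.5-fold, 2 each way. That limit is asked of the higher library only and so favours large folds where cells are few. The count therefore does not measure how far alpha use differed. Trav16n had 35 cells (13.8%) in the CCl4 and 20 (8.97%) in the CCl4+IPA library, a ratio of 0.648 (0.355 to 1.15), a range that includes no difference. Trav13-1 had 30 (11.9%) and 6 (2.69%), a ratio of 0.227 (0.0772 to 0.554). Trav3-3 had 16 (6.32%) and 32 (14.3%), 2.27-fold higher in the CCl4+IPA library (1.21 to 4.43). Trav8d-2 had 10 (3.95%) and 33 (14.8%), 3.74-fold higher there (1.80 to 8.52), so the most used alpha gene was Trav16n in one library and Trav8d-2 in the other.

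The cells behind Trav8d-2 formed a narrow set in the CCl4+IPA library. Of its 33 cells 29 were CD8 cells (87.9%, 71.8 to 96.6), 19 of them with NK receptors, and 0 were CD4 cells. All alpha-assigned cells of that library were CD8 cells in 56.5% (126 of 223). The other 190 alpha-assigned cells, used for comparison here, include CD4 cells and cells with neither coreceptor. The folds are thus not within CD8 cells, and the larger CD8 share of the Trav8d-2 cells enters them. Against these 190 cells the granzyme genes Gzmk (315 and 48.1 CPM, 6.54-fold, 4.35 to 9.86) and Gzma (6.48-fold, 5.85 to 7.19) were higher. So were the chemokine gene Ccl5 (4.09-fold, with a UMI in 33 of 33 cells) and Eomes, a transcription factor of cytotoxic memory cells (3.79-fold, 2.55 to 5.60). Tcf7 and Il7r had 1 UMI each in the 33 cells. Of the 9 Trav8d-2 cells with a beta gene 6 had Trbv13-3. In the CCl4 library only 4 of 10 Trav8d-2 cells were CD8 cells, and Gzmk stood at a ratio of 0.831 (0.266 to 1.98).

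Trav13-1 was also used mainly by CD8 cells in the CCl4 library. Of its 30 cells 26 were CD8 cells (86.7%, 69.3 to 96.2), against 63.2% of all alpha-assigned cells there (160 of 253). NK receptors were found in 10 of these 26, against 80 of all 160 alpha-assigned CD8 cells of that library. For Trav8d-2 in the CCl4+IPA library they were found in 19 of 29, against 67 of 126. Eomes was 2.77-fold (1.91 to 3.95), Gzmk 2.44-fold (1.63 to 3.57) and the chemokine receptor gene Cxcr3 2.10-fold (1.36 to 3.16) the level of other alpha-assigned cells. Those other cells were likewise not CD8 cells alone. Of 13 Trav13-1 cells with a beta gene 6 had Trbv12-2. Trav16n, the leading gene of the CCl4 library, had 74.3% and 75.0% CD8 cells.

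A pair of genes outside the rule for named genes was singled out after their values were seen. Trav6-7-dv9 had 5 cells (1.98%) in the CCl4 and 19 (8.52%) in the CCl4+IPA library, a ratio of 4.31 (1.56 to 14.8). Its 19 cells held 8 CD4 cells, of which 5 had a UMI of Foxp3, the regulator of regulatory T cells, and 8 CD8 cells. Foxp3 stood at 126 CPM in the 19 cells and 32.6 in other alpha-assigned cells of any coreceptor gate (3.87-fold, 1.83 to 7.63). Trav13-4-dv7 had 6 and 34 UMIs in CD3 cells, and the 34 lay in 15 cells with up to 12 UMIs in 1 cell.

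Gamma use was dominated by Trgv2, at 79.0% of gamma-assigned cells in the CCl4 library (147 of 186) and 80.1% in the CCl4+IPA library (129 of 161). Trgv6 had 17 cells (9.14%) and 5 (3.11%), a ratio of 0.340 (0.0980 to 0.959). Trgv1 had 15 (8.06%) and 14 (8.70%), and Trgv4 7 (3.76%) and 13 (8.07%). Of CD3 cells with a gamma gene 17.7% (40 of 226) and 9.55% (17 of 178) showed more than 1 and were left out. With these kept, Trgv1 was found in 36 and 22 CD3 cells (1.33% and 0.680%) and Trgv4 in 20 and 17 (0.740% and 0.526%). Gamma use thus depends on the cells left out, more so in the CCl4 library. Of delta-assigned cells 71 of 77 (92.2%) and 25 of 31 (80.6%) used Trdv4, and 6 in each library used Trdv2-2. In all CD3 cells Trdv4 stood at 17.4 and 3.78 CPM, which is 4.60-fold higher with CCl4 alone (3.37 to 6.38), and Trgv6 at 3.49 and 0.907, 3.85-fold higher (2.0 to 8.0). Trgv2 was 1.78-fold higher there (1.49 to 2.13) and Trgv1 2.05-fold (1.22 to 3.56). Fewer gamma delta cells and less V RNA in each cannot be told apart in these sums.

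Most CD3 cells with Trgv2 showed no delta constant gene. Trgv2 was found in 184 and 146 CD3 cells, of which only 33.7% and 20.5% had a Trdc UMI, while 60.3% and 78.8% had a Trac UMI and 26.1% and 24.7% an alpha or beta V gene. Of these cells 85 and 81 were CD8 cells, with Trac in 77.6% and 88.9% and Trdc in 7.06% and 3.70%. The Trgv2 level rose from CD4 cells to CD8 cells with NK receptors in both libraries. In the CCl4 library it was 4.47 CPM in CD4 cells, 13.9 in CD8 cells without and 30.4 in CD8 cells with NK receptors. In the CCl4+IPA library these levels were 2.20, 5.58 and 21.8. The highest levels, 80.3 and 40.1, were in cells with NK receptors and neither coreceptor. Thinned to 2000 UMIs, 5.65% of CD8 cells with NK receptors and 2.07% of those without had Trgv2 in the CCl4 library, and 3.60% and 1.11% in the other. B cells stood at 0.0747 and 0 CPM.

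CD8 cells with Trgv2 shared a profile in both libraries when set against CD8 cells without a gamma or delta V gene. Trgc2, the constant gene that lies next to Trgv2, was 22.4-fold (17 to 29.5) and 14.8-fold (12 to 18.4) higher, while Trac was level (0.960 and 0.972). Ikzf2 (Helios), a factor of self-reactive and innate-like T cells, was 5.32-fold (4.38 to 6.44) and 4.78-fold (4.12 to 5.54) higher. The chemokine gene Xcl1 was 4.87-fold and 3.91-fold higher, and Klre1 2.39-fold and 3.37-fold. Klra7, an inhibitory receptor for class I MHC, was 7.46-fold and 14.6-fold higher, from 6 of 85 and 14 of 81 cells. Gzma was 2.22-fold and 3.50-fold higher. The naive genes lay the other way, with Ccr7 at ratios of 0.0947 and 0.0614 and Lef1 at 0.200 and 0.167. Each of these ratios lay on the same side of 1 in both libraries.

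**Figure D5:**
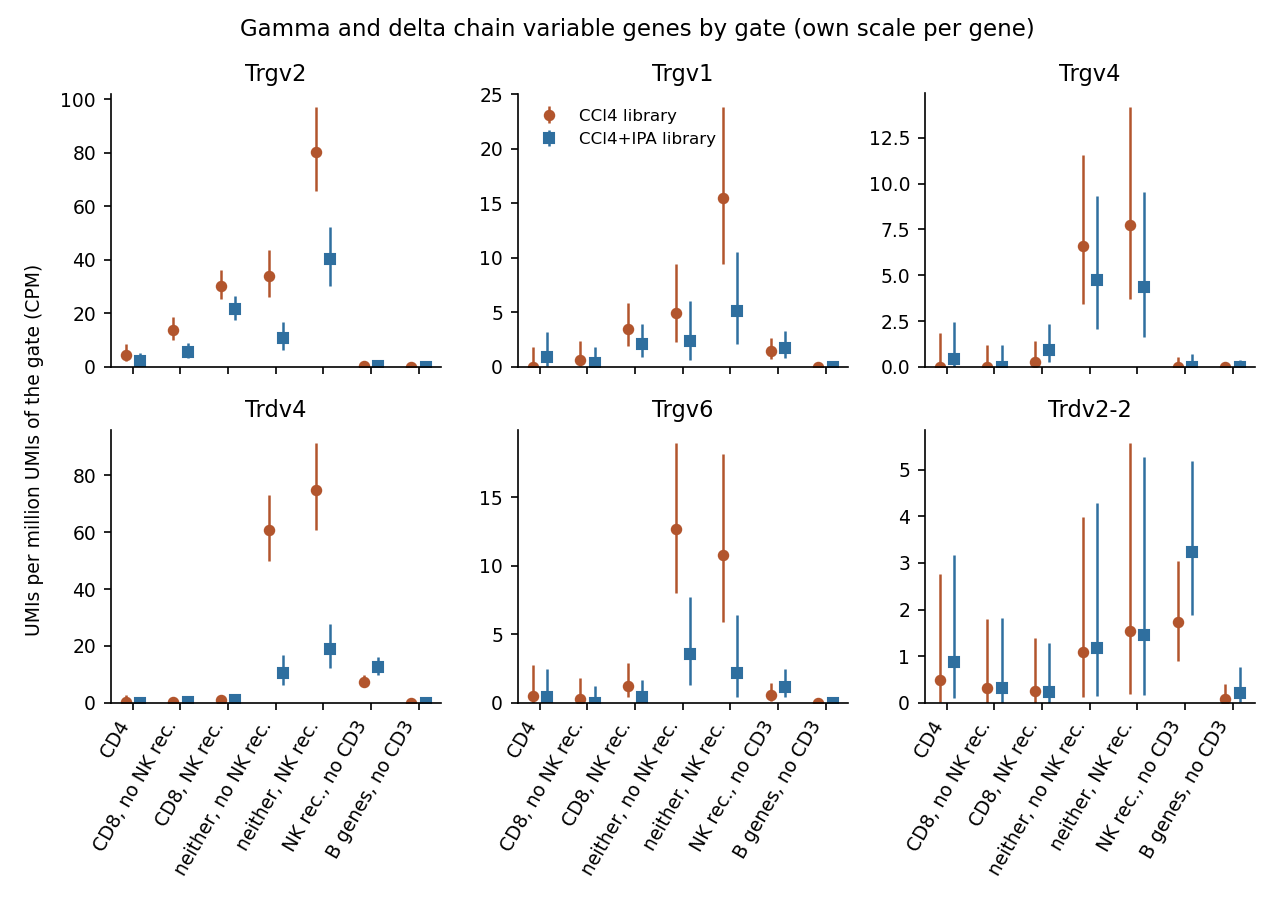
CPM of each gamma and delta V gene (vertical axis, own scale per panel) in CD4 cells, CD8 cells and cells with neither coreceptor, split by NK receptor genes, and in cells without CD3, for both libraries, with 95% exact Poisson intervals of counting error. Trgv2 rises from CD4 cells to cells with NK receptors, while Trdv4 and Trgv6 are high in cells with neither coreceptor alone among CD3 cells, and Trdv4 is also present in cells with NK receptors and no CD3.

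Many CD3 cells with Trdv4 carried the delta constant gene, and as a set they carried genes of interleukin 17 production. There were 72 CD3 cells with Trdv4 in the CCl4 library (219 UMIs) and 26 in the other (50 UMIs). Of these 66 and 20 had neither coreceptor, and 91.7% and 61.5% had Trdc. Among those with neither coreceptor 29 and 13 had NK receptors, with Trdc in 86.2% and 46.2%. All 37 and 7 without NK receptors had Trdc. The set in the CCl4+IPA library was thus mixed. In cells with neither coreceptor and no NK receptors the Trdv4 level was 60.6 and 10.7 CPM, and in those with NK receptors 74.9 and 19.0. In CD4 and CD8 cells it was at most 1.15 CPM. Trgv6 was found in 29 and 10 CD3 cells. Its level in cells with neither coreceptor was 12.7 and 3.56 CPM without NK receptors and 10.8 and 2.19 with them, and in CD4 and CD8 cells at most 1.24. Of 39 Trdv4 cells of the CCl4 library with a gamma gene, 23 had Trgv6 and 21 Trgv2, some of them both.

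Set against CD3 cells without a gamma or delta V gene, Trdv4 cells had the type 17 genes in both libraries. Il17a stood at 514 and 6.20 CPM in the CCl4 library (82.9-fold, 62.8 to 111) and 493 and 21.5 in the CCl4+IPA library (22.9-fold, 17.2 to 30.0). Il23r, the receptor that sustains interleukin 17 production, was 38.3-fold and 22.7-fold higher. Sox13, a factor of this lineage, was 69.3-fold (39.9 to 125) and 69.2-fold (28.4 to 164) higher, and the kinase gene Blk 34.3-fold and 24.7-fold. Il17a was seen in 27 of 72 and 6 of 26 Trdv4 cells. The Il17a level of the Trdv4 cells was thus close in the libraries, though in the CCl4+IPA library it rests on 6 cells. Trdv4 was read, without thinning, in 72 of 2704 and 26 of 3233 CD3 cells. Its recovery may differ, since the CCl4+IPA to CCl4 ratio was 0.245 for delta V UMIs and 0.555 for Trdc. Il17a in the comparison cells was higher in the CCl4+IPA library, at 21.5 against 6.20 CPM. How many type 17 cells had Trdv4 transcripts that were missed was not tested. The counts are therefore no comparison of the numbers of such cells.

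Trdv4 was also read in cells that had NK receptors and no CD3 UMI, 48 in the CCl4 and 63 in the CCl4+IPA library. Its level there was 7.53 (5.62 to 9.87) and 12.75 CPM (9.88 to 16.2), the reverse order of that in CD3 cells. By cells it was close to level, at 4.51% (3.34 to 5.94) and 4.88% (3.77 to 6.20) of the gate. Thinned to 2000 UMIs the Trdv4 shares were 2.16% (1.32 to 3.31) and 2.65% (1.77 to 3.81), with ranges that overlap. As a set, these Trdv4 cells were unlike the CD3 cells with Trdv4. Of the Trdv4 cells without CD3 only 10.4% and 4.76% had Trdc, and Il17a and Sox13 had 0 UMIs in them in both libraries. Ncr1, the NK cell receptor NKp46, was seen in 85.4% and 79.4%. Against the other cells of that gate, which are a mixture, Xcl1 was 3.72-fold (3.26 to 4.24) and 1.49-fold (1.30 to 1.70) and Klrc1, an inhibitory NK receptor, 2.85-fold and 2.51-fold higher. Trdv2-2 was likewise found more often in this gate, in 12 and 17 cells, than in CD3 cells, in 7 and 7. Trgv1 was found in 9 and 9 cells of the gate and Trgv6 in 4 and 6. The Trgv6 level there was 0.579 (0.158 to 1.48) and 1.14 CPM (0.419 to 2.48), from 4 and 6 UMIs, with ranges that overlap. Thinned to 2000 UMIs its share was 0.216% and 0.0947%, so no order of the libraries is read from it. Median depth of the Trdv4 cells without CD3 was 4521.5 and 3851 UMIs, and of the whole gate 5736 and 3530. How many of them had CD3 transcripts that were missed was not tested. Thinned to 2000 UMIs, 3.02% and 3.41% of the gate had a delta gene, against 0.118% and 0.0822% of B cells with any V gene. Alpha genes were found in 0 and 2 cells of the gate and beta genes in 1 and 1.

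Cells with a gamma or delta V gene and no alpha or beta V gene were 6.61% of thinned CD3 cells of the CCl4 library (5.66 to 7.66) and 3.58% of the CCl4+IPA library (2.94 to 4.32). Since Trgv2 is present in cells with Trac, these shares are not shares of gamma delta T cells.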

How the data were processed

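Values are raw UMI counts as deposited, and Cell Ranger 7.1.0 wrote them, per the file headers. The submitters' processing notes name mm9. Because all 178 V genes matched GENCODE M21 identifiers, which are of another build, no coordinates are given. The sources used here do not say whether intronic reads were counted.

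Cells needed 500 UMIs, 300 genes and a mitochondrial share under 20% (10294 of 10427 and 10459 of 10471), less 278 and 331 that Scrublet called as doublets. Gates are sums of UMIs of named genes and not cell types. CPM is the sum over the cells of a gate per 1000000 of their UMIs, from 12609984 and 13234039 UMIs in CD3 cells. A 0 was set at a floor of 3 cells or UMIs to give a fold, which is not an exact bound. Shares have Clopper-Pearson, CPM Poisson and ratios conditional binomial intervals at 95%. The assignment of cells to V genes was checked on simulated counts of known use.

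Members, gates and lists were chosen with earlier results of these data known. Named are the 12 most used beta and 10 most used alpha genes with at least 20 assigned cells in each library, all gamma and delta members, Trav11, Trav11d, Trav1, Trbv13-2, Trbv29, Trbv1 and Trbv19, genes past 1.5-fold between libraries or between CD4 and CD8 cells, and list genes. Others were named after their values were seen. Alternatives varied barcode filters, gates, depth, the fold and how cells were assigned. Scrublet ran in scanpy 1.11.5 (scikit-learn 1.9.0). Statistics used scipy 1.17.1, numpy 2.4.6 and pandas 2.3.3, and plots matplotlib 3.10.9, under Python 3.11.15 and seed 1.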

Additional observations from a re-analysis of the deposited data

How the results depend on the processing

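Of 116 alternatives over 16 results 86 left the value within its counting error or, for counts, within 1.5 times, and 30 moved it. How many reversed the order of the libraries was not counted. Beta V UMIs per 1000 constant UMIs moved under none of those run. No paired analysis was possible because each group has 1 library and no test was run. Values are for the CCl4 and then the CCl4+IPA library.

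Requiring 2 UMIs for assignment left few cells. It gave Trav11 use of 0% and 0% (0.249% and 0.285% otherwise), Trbv13-2 use in cells with NK receptors of 2.78% and 13.3% (7.22% and 6.0%), and Trbv16 use in CD8 cells with NK receptors of 60% and 8.33% (30.3% and 16.3%). With Klrb1c alone as NK receptor the last was 6.67% and 7.14%. The order of the libraries turned in this case and for Trbv13-2 with 2 UMIs, from few cells.

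The number of genes past 1.5-fold between CD4 and CD8 cells, 1, became 2 with 1 CD3 UMI, 3 by UMIs, 4 with 10 cells, 2 by the gene with most UMIs, 0 outside NK receptor cells and 0 with 2 UMIs. The number of Trbv genes past the fold between libraries, 3, became 0 at 2-fold, 1 over all barcodes, 6 with 10 cells and 1 with 2 UMIs.

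Shares moved with depth. The Trbv share (9.75% and 5.56%) was 18.4% and 10.3% without thinning and 4.70% and 2.79% at 1000 UMIs. The gamma or delta share (6.61% and 3.58%) was 7.77% and 4.92%, 3.99% and 1.88%, and 5.39% in the CCl4 library with 1 CD3 UMI. The share with more than 1 Trbv gene (0.242% and 0.0682%) was 1.07% and 0.340% without thinning, and 0.0376% in the CCl4 library at 1000 UMIs.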

Other observations

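Trav20, which the annotation lists as a pseudogene and which fell short of the limit with 18 UMIs, was confined to 1 library: all 18 UMIs were in the CCl4 matrix and 0 in the CCl4+IPA matrix. In CD3 cells of the CCl4 library it had 16 UMIs in 14 cells, at 1.27 CPM (0.725 to 2.06). That is 5.60-fold above a floor of 3 UMIs set for the 0 of the other library (0.227 CPM). The exact upper limit of that 0 is higher, at 0.279 CPM. Of the 14 cells 12 were CD8 cells, 10 of them with NK receptors, and 5 had Trbv16.

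Gamma genes under the limit differed in opposite directions. Trgv3 had 1 UMI in the CCl4 and 11 in the CCl4+IPA library, and Trgv7 had 12 and 2. J and D segments, 84 genes in all, held 20 and 17 UMIs, so the joining segment could not be read. These genes were chosen after their values were seen.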
